A study of Oryza sativa with 4 samples.

Results

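The genes described here are 8 histone methyltransferase genes of the rice SET domain group (SDG) family, chosen by name from the study's protein tree for the histone mark they are known or thought to set: SDG712, SDG701, SDG723, SDG708, SDG724, SDG725, SDG711 and SDG718. They were found by NCBI gene and locus number on the Affymetrix Rice Genome Array, where 13 probe sets represent these 8 genes, out of 57194 probe sets without controls and 17905 genes. The arrays measured RNA from leaves of Zhonghua11, the wild type, and of hd1-3, a mutant in which the flowering regulator Hd1 is disrupted by deletions and insertions. There were 4 arrays, 1 for each combination of genotype and day length.

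All plants were 35 days old and came from climate chambers held at 28 °C. Under short days (SD) wild type and hd1-3 received 11.5 h of light and 12.5 h of darkness, and leaves were taken 3 h after the light came on. Under long days (LD) both genotypes received 15 h of light and 9 h of darkness, and leaves were taken 5 h after the light came on, so the effect of day length and that of the time of harvest cannot be told apart. The sources used here do not say how many plants went into a sample, nor how the genetic background of hd1-3 relates to Zhonghua11 outside Hd1. With 1 array a group, no difference between a single pair of arrays has a replicate check, and in whole leaves fewer cells that use a gene and less RNA per cell cannot be told apart.

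SET domain proteins transfer methyl groups from S-adenosylmethionine to lysines of histone tails. Methylation of histone H3 at the lysines known as H3K4 and H3K36 is typical of transcribed genes, whereas H3K9 and H3K27 methylation is typical of silenced ones, the latter deposited by Polycomb repressive complex 2 (PRC2). In rice, enzymes of these classes set the time of flowering by acting on the pathway that leads through Ehd1 to the florigen gene Hd3a, and Hd1 itself promotes flowering under SD and delays it under LD.

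The study designed oligonucleotides for SDG712, the gene with the largest difference among the 8, and they are printed here to identify the transcript. The pair labelled ex served for quantitative PCR of its RNA. The pair labelled GFP amplified its coding sequence for fusion to green fluorescent protein, and its forward member holds the ATG start codon from base 10. Capitals mark the restriction sites added to the GFP pair, SacI in the forward and BamHI in the reverse oligonucleotide, and all 4 are written 5′ to 3′.
SDG712-ex-F: gcccgtgttgaataatctac
SDG712-ex-R: taacagttcgggcagacagt
SDG712-GFP-F: tcaGAGCTCatggccaaacccaatggcaa
SDG712-GFP-R: ttaGGATCCaacccgcgccctcgatttag

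SDG712 was the one gene of the 8 whose signal differed greatly between genotypes, and the other 7 differed by less than 2-fold between hd1-3 and wild type under either day length at their brightest probe set. No gene passed the test for day length. At its brightest probe set SDG723, an H3K4 methyltransferase, was higher on both LD arrays than on both SD arrays. SDG724, SDG725 and SDG711 had the same order at theirs, and SDG701 and SDG708 the reverse. Unlike in SDG723, no step between neighbouring arrays in these genes exceeded the spread typical of their signal. The share of all probe sets with such an order is not given here, so the order is a description. Differences are given as log2(signal + 1), hd1-3 minus wild type or LD minus SD, and were tested with limma on the 28133 probe sets that reached a signal of 100 on at least 1 array. That limit of 100 was chosen for this work, and signals below it are treated as bounds. Of the 10 testable probe sets of the 8 genes, 1 was called for genotype (Benjamini-Hochberg adjusted p under 0.05), lower in hd1-3, where 2.07% of all tested probe sets were called and 0.985% were called lower, and 0 were called for day length, where 13.6% were. At an unadjusted p under 0.05 the numbers were 1 of 10 for genotype and 2 of 10 for day length, against 11.7% and 27.0% of all tested probe sets, and 1 of these 2 had reached 100 under LD only. The probe set called for genotype had reached 100 in wild type only.

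**Figure D1:**
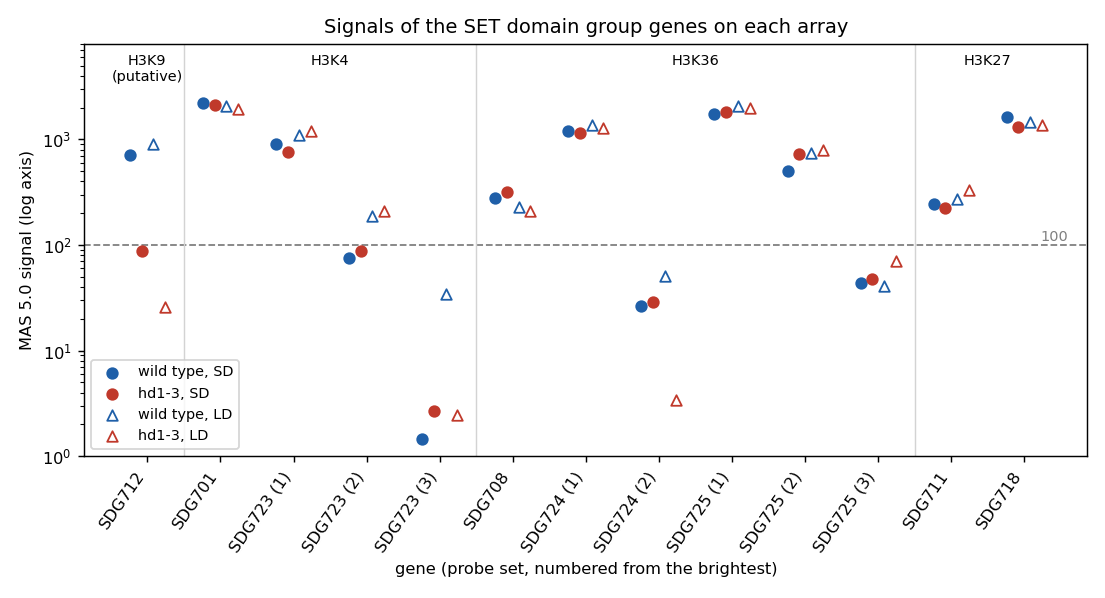
Signal (log axis) of all 13 probe sets of the 8 genes on each of the 4 arrays, grouped by histone mark, with probe sets of 1 gene numbered from the brightest. Each point is 1 array and the dashed line is a signal of 100. Both hd1-3 points of SDG712 lie below the line (86.9 and 25.8) and both wild type points above it (704 and 912). Heights may be compared within a probe set but not between probe sets.

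SDG712 (LOC_Os02g40770, NCBI gene LOC4330010, chromosome 2) encodes a putative H3K9 methyltransferase and is represented by 1 probe set. The SD arrays gave 704 for wild type and 86.9 for hd1-3, and the LD arrays gave 912 for wild type and 25.8 for hd1-3. Both wild type arrays were high and both hd1-3 arrays fell below 100, so the genotypes did not overlap. With signals below 100 raised to 100, SDG712 was at least 7.04-fold lower in hd1-3 under SD and at least 9.12-fold lower under LD, and 1.76% of tested probe sets were more than 2-fold lower under both day lengths. The study singled this gene out for its fold on these same arrays, and the genotype difference on them is therefore a description that supports nothing further. Separately from the arrays, the study reported by quantitative PCR that RNA of this gene was significantly lower in the mutant under both day lengths. Those PCR measurements were not analysed here. On the arrays SDG712 also entered the test only through wild type, the genotype where it was high, so the test adds no support. The fitted genotype difference of -4.05 ± 0.444 (SE, 2 arrays per genotype, 1 under each day length) rests on hd1-3 signals below 100. SDG712 was the called probe set counted above. That call was lost when limma ran without its trend of variance on signal, when the day length term was dropped, and when any 1 of the 4 arrays was left out.

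Between day lengths, SDG712 was not called. In wild type it was 0.37 higher under LD, which equals the spread of 0.37 typical of probe sets with a mean signal between 200 and 500. That range holds the mean of SDG712 over all arrays. The wild type signals alone, 704 and 912, lay where the spread is 0.27, and the rise exceeded that value without a replicate check. In hd1-3 SDG712 was 1.71 lower under LD, but both signals lay below 100 and their order has no firm meaning. The fitted LD minus SD difference of -0.67 had a 95% interval from -1.67 to 0.33 (limma, adjusted p = 0.379), so neither sign could be assigned. Whether its genotype difference changed with day length could not be tested, because no residual degree of freedom is left with that term and both hd1-3 signals are bounds.

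**Figure D2:**
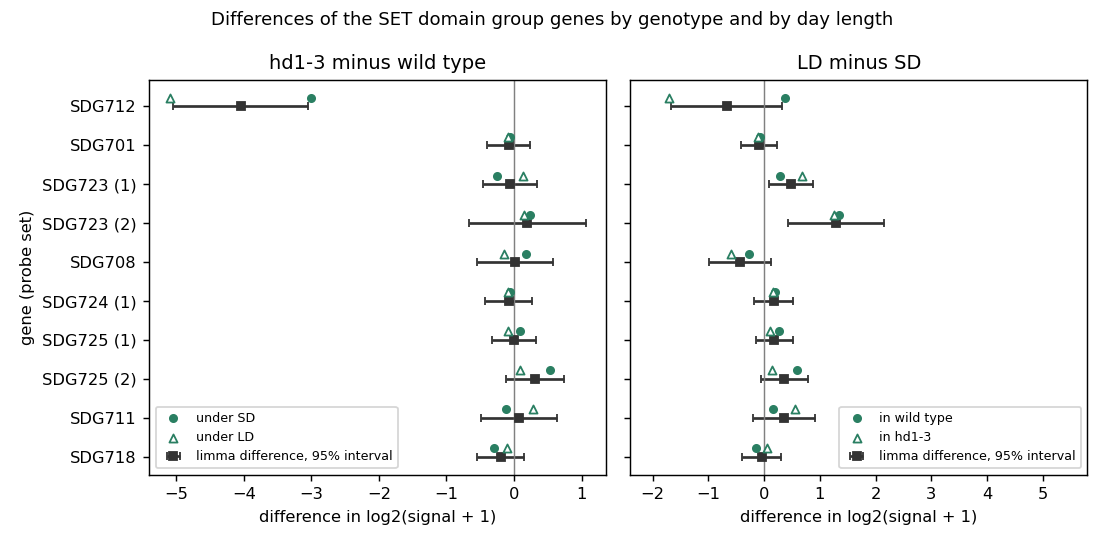
Differences in log2(signal + 1) for the 10 testable probe sets, hd1-3 minus wild type on the left and LD minus SD on the right. Small symbols are the 2 pairs of arrays behind each difference and squares are the limma difference with its 95% interval. On the left every interval except that of SDG712 crosses 0, but SDG712 was below 100 on both hd1-3 arrays and is a description. On the right the interval of the brightest SDG723 probe set runs from 0.09 to 0.87 before adjustment for multiple tests. The second SDG723 probe set was below 100 on both SD arrays and is likewise a description.

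SDG701 and SDG723 are H3K4 methyltransferases, and in rice both are known to promote flowering. SDG701 (LOC4344819, chromosome 8) had signals of 2186 (wild type) and 2092 (hd1-3) under SD and of 2065 (wild type) and 1942 (hd1-3) under LD. Its 4 arrays lay within 0.17 of each other on the log2 scale, and no step between neighbours in their order exceeded the spread of 0.21 at that signal. The genotype difference of SDG701 was -0.08 (95% interval -0.39 to 0.24, limma adjusted p = 0.889) and the day length difference was -0.09 (-0.41 to 0.22, adjusted p = 0.721).

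SDG723, also known as OsTrx1 and related to the Trithorax proteins of animals, lies on chromosome 9 (LOC4346464) and has 3 probe sets. The brightest read 896 for wild type and 752 for hd1-3 under SD, and 1095 and 1200 for the same genotypes under LD. Both LD arrays were above both SD arrays, and the step between the higher SD array and the lower LD array was the one beyond the spread of 0.27. LD exceeded SD by 0.29 in wild type and by 0.67 in hd1-3. The fitted day length difference was 0.48 ± 0.175 (SE), with an unadjusted p of 0.0220 and an adjusted p = 0.108 (limma).

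The next probe set of SDG723 read 74.7 and 88.4 under SD and 190 and 211 under LD, in wild type and hd1-3 respectively. Again both LD arrays lay above both SD arrays, and LD exceeded SD by 1.33 in wild type and 1.25 in hd1-3. Because both SD signals were below 100, these amount to at least 1.90-fold in wild type and at least 2.11-fold in hd1-3. It entered the test only through its LD arrays, so its LD minus SD difference is given as a description, with no test. This probe set carries the suffix _x_at, which Affymetrix gave to sets with probes that can also match other transcripts. The third probe set was designed on the same mRNA accession and stayed below 100 on every array (1.46, 34.3, 2.65 and 2.47 in wild type SD, wild type LD, hd1-3 SD and hd1-3 LD), so it was not testable. Neither testable probe set of SDG723 differed between genotypes in the fit, with -0.06 (95% interval -0.45 to 0.33, adjusted p = 0.935) for the brightest and 0.20 (-0.67 to 1.06, adjusted p = 0.895) for the other.

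SDG708, SDG724 and SDG725 are H3K36 methyltransferases, each needed for timely flowering in rice. SDG708 (LOC4335856, chromosome 4) had SD signals of 279 (wild type) and 315 (hd1-3) and LD signals of 230 (wild type) and 209 (hd1-3). Both LD arrays were below both SD arrays, by 0.27 in wild type and by 0.59 in hd1-3, which made it the one H3K36 gene that was lower under LD. No single step in the order exceeded the spread of 0.37, and the fitted day length difference was -0.43 (95% interval -0.996 to 0.13, limma adjusted p = 0.311). The genotype difference was 0.02 (-0.55 to 0.58, adjusted p = 0.990), with hd1-3 above wild type under SD and below it under LD.

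SDG724 (LOC4346677, chromosome 9), known to promote flowering, read 1206 (wild type) and 1158 (hd1-3) under SD and 1377 (wild type) and 1292 (hd1-3) under LD at its brightest probe set. The LD arrays were the higher ones in both genotypes, by 0.19 and 0.16, less than the spread of 0.21. The fit gave 0.17 for day length (95% interval -0.17 to 0.52, adjusted p = 0.525) and -0.08 for genotype (-0.42 to 0.27, adjusted p = 0.901). Its other probe set was below 100 on all 4 arrays, at 26.1, 28.5 and 50.7 with 3.39 in hd1-3 under LD, and was not tested.

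SDG725 (LOC4329647, chromosome 2, like SDG712) has 3 probe sets. The brightest read 1726 (wild type) and 1832 (hd1-3) under SD and 2079 (wild type) and 1960 (hd1-3) under LD. Both LD arrays were above both SD arrays by small steps that did not exceed the spread. Its genotype difference was 0.00 (95% interval -0.33 to 0.33, adjusted p = 0.999) and its day length difference 0.18 (-0.15 to 0.51, adjusted p = 0.473). The next probe set, also of the _x_at kind like the brightest of SDG724, read 501, 723, 751 and 800 in wild type SD, hd1-3 SD, wild type LD and hd1-3 LD, where wild type under SD stood apart from the other 3 arrays by more than the spread of 0.27. Here hd1-3 exceeded wild type by 0.53 under SD and by 0.09 under LD, and the fitted genotype difference of 0.31 (95% interval -0.12 to 0.74, adjusted p = 0.594) was the largest among the 7 genes other than SDG712. The third probe set lay between 40.5 and 71.1 and was not tested.

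SDG711 and SDG718 are the rice homologs of the Polycomb protein Enhancer of zeste, the H3K27 methyltransferase of PRC2, and are known to act in long-day and short-day flowering respectively. SDG711 (LOC4340748, chromosome 6) read 245 (wild type) and 225 (hd1-3) under SD and 274 (wild type) and 331 (hd1-3) under LD. Both LD arrays were above both SD arrays, by 0.16 in wild type and by 0.56 in hd1-3, yet no step between neighbours in the order passed the spread of 0.37. The fit gave 0.36 for day length (95% interval -0.20 to 0.92, adjusted p = 0.403) and 0.08 for genotype (-0.49 to 0.64, adjusted p = 0.944).

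SDG718 (LOC4332612, chromosome 3) read 1620 (wild type) and 1320 (hd1-3) under SD and 1465 (wild type) and 1371 (hd1-3) under LD. Both hd1-3 arrays were below both wild type arrays, by 0.29 under SD and by 0.10 under LD. No step between neighbours in the order passed the spread of 0.21. The share of all probe sets with such an order is not given here, so the order is a description. The fitted genotype difference was -0.20 (95% interval -0.54 to 0.15, adjusted p = 0.695), the most negative of the 7 genes other than SDG712. The day length difference was -0.05 (-0.39 to 0.30, adjusted p = 0.886).

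By histone mark, none of the H3K4, H3K36 or H3K27 genes passed either test (limma). Signals of different probe sets cannot be set against each other on this array, so the marks are compared by their differences, with the brightest probe set for each gene. The median genotype difference under SD was -0.16 for the 2 H3K4 genes, 0.09 for the 3 H3K36 genes and -0.21 for the 2 H3K27 genes. Under LD these medians were 0.02, -0.09 and 0.09, so each class median had the opposite sign to its SD value. Within the classes SDG723, SDG708, SDG725 and SDG711 changed sign, while SDG701, SDG724 and SDG718 did not. Of these genotype differences only that of SDG718 under SD was beyond the spread, so the signs of the medians are a description. For LD minus SD the medians in wild type were 0.10, 0.19 and 0.01 for H3K4, H3K36 and H3K27, and in hd1-3 they were 0.28, 0.10 and 0.31. Within H3K4 the day length value came from SDG723 while SDG701 was slightly lower under LD, and within H3K36 SDG708 went against SDG724 and SDG725.

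For the 7 genes other than SDG712, the median difference was smaller than over the whole array. Their median absolute difference between genotypes was 0.125 under SD and 0.0958 under LD, where all tested probe sets had 0.282 and 0.249. Between day lengths it was 0.190 in wild type and 0.159 in hd1-3, against 0.368 and 0.378. Single genes went past those array medians, namely SDG718 between genotypes under SD, SDG711 between genotypes under LD, and SDG723, SDG708 and SDG711 between day lengths in hd1-3. The spread falls from 0.57 at signals of 100 to 200 to 0.21 at 1000 to 5000, and against tested probe sets of like brightness 2, 1, 0 and 3 of the 7 genes exceeded the median, for genotype under SD and LD and for day length in wild type and hd1-3. Among the 10 tested probe sets, those above 2-fold numbered 1 for genotype under SD, 1 for genotype under LD, 1 for day length in wild type and 2 for day length in hd1-3, where 11.4%, 9.83%, 15.2% and 15.4% of all tested probe sets were. They were SDG712 and the second probe set of SDG723, by signals as read. With signals below 100 raised to 100, that SDG723 probe set was above 2-fold only in hd1-3 (2.11, against 1.90 in wild type). SDG712 then showed no day length difference in hd1-3. With the untested dim probe sets the numbers over all 13, again by signals as read, were 1, 3, 2 and 3. Of probe sets with a mean signal under 50 on this array, 48.7% were above 2-fold between genotypes under LD.

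The surroundings of the 8 genes on their chromosomes were then compared, a look chosen after the values had been seen. Among the 20 tested genes on each side of SDG712, 4 of 40 were called for genotype, where 1.93% of all 14952 tested genes and 0.990% of the 1818 on chromosome 2 were. With SDG712 itself, this window held 5 of the 18 called genes of that chromosome. Since the window is centred on SDG712, a gene singled out for its fold on these arrays, that count is a description. With 10 genes on each side the count was 1 of 20 (5%) and with 40 it was 5 of 80 (6.25%), so the share was highest at the width shown. Its called neighbours were LOC4329978 (0.97), LOC9269584 (-2.10), LOC4329983 and, 6 tested genes away, the casein kinase gene CKI1 (1.47), 3 of them higher in hd1-3 and 1 lower. LOC4329983 was below 100 on both wild type arrays and at least 6.84-fold and 11.4-fold higher in hd1-3 under SD and LD. Since such a gene enters the test only through the genotype where it is high, genes that reached 100 in both genotypes were also counted alone, and 3 of 36 were called around SDG712, where 1.73% of all such genes were. CKI1, also named LTG1 for low temperature growth, had signals of 914 and 2712 under SD and of 1071 and 2761 under LD, in wild type and hd1-3 respectively. The called neighbours thus changed in both directions, while most of the 40 were not called. LOC4329978, LOC4329983 and LOC9269584 lay side by side, at -14, -13 and -12 in the order of tested genes, and CKI1 at 6 on the other side. The count of 4 ranged from 3 to 5 under other scalings and filters and fell to 0 without the limma trend and without the day length term, and to 0 or 1 when 1 array was left out.

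**Figure D3:**
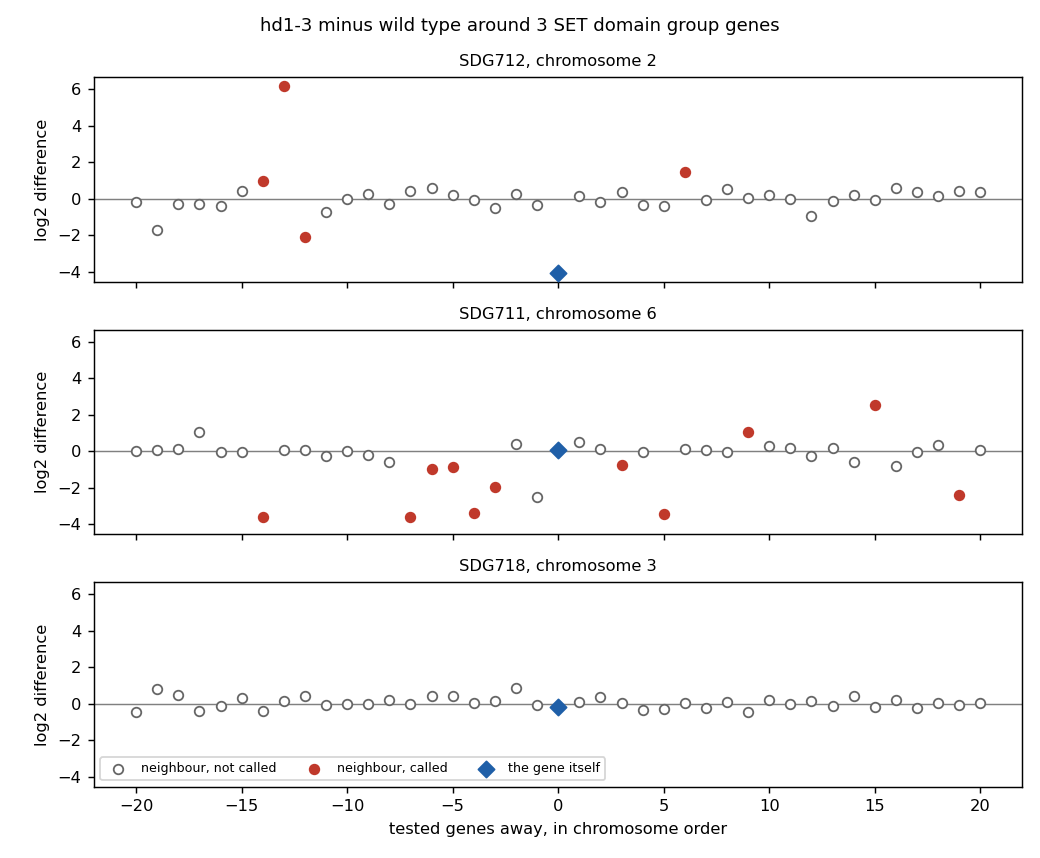
Limma difference in log2(signal + 1), hd1-3 minus wild type, of the 20 tested genes on each side of SDG712, SDG711 and SDG718, placed by their order on the chromosome and not by distance in bases. Filled circles were called at an adjusted p under 0.05 and the diamond is the gene itself. SDG711 sits at 0.08 among 11 called neighbours, 9 of them lower in hd1-3, SDG712 sits at -4.05 among 4, and SDG718 sits at -0.20 among 0. Some of the lower neighbours of SDG711 were below 100 on both hd1-3 arrays and entered the test only through wild type.

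SDG711 showed the opposite arrangement, an uncalled gene among many called ones. It lies next to Hd1 on chromosome 6, with 1 tRNA gene between them in the RefSeq annotation. Of its 40 nearest tested genes 11 were called for genotype, 9 lower and 2 higher in hd1-3, where 4.55% of the genes on chromosome 6 were. Among these SERL2, a somatic embryogenesis receptor-like kinase gene 3 tested genes away, fell by 1.96, LOC4340742 fell by 3.37 and, on the other side, LOC4340753 was at least 2.65-fold and 2.35-fold lower under SD and LD, being below 100 on both hd1-3 arrays. With 10 genes on each side 8 of 20 (40%) were called and with 40 it was 12 of 80 (15%). Of the lower genes, LOC4340717, LOC4340738, LOC4340753 and LOC4340797 were below 100 on both hd1-3 arrays. They entered the test only through wild type, where they were high, so the split of 9 lower and 2 higher is a description. With 20 on each side, 7 of 32 genes that reached 100 in both genotypes were called, where 1.73% of all such genes were. SDG711 itself, as given above, differed by 0.08. The count of 11 fell to 5 at a filter of 500, which left 27 genes in the window, to 2 without the day length term, to 0 without the limma trend, and to 0 or 1 when 1 array was left out.

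**Figure D4:**
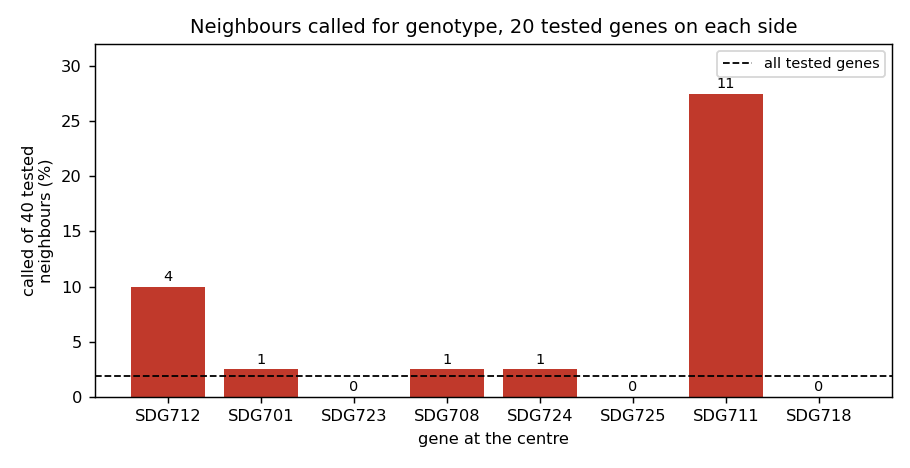
Percentage of the 40 nearest tested genes (20 on each side) called for genotype around each of the 8 genes, with the number called above each bar and the share over all tested genes, 1.93%, as a dashed line. SDG711 (27.5%) and SDG712 (10%) stand above the line, SDG701, SDG708 and SDG724 have 1 called neighbour each (2.5%), and SDG723, SDG725 and SDG718 have 0.

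The other 6 genes had at most 1 called gene among the 40 around them. Around SDG701, SDG708 and SDG724 there was 1 called gene among 40 each, and around SDG723, SDG725 and SDG718 there were 0 by limma. Over the whole chromosomes of these genes the share called was 1.62% on chromosome 8, 1.84% on chromosome 4, 1.73% on chromosome 9 and 1.11% on chromosome 3. With 40 genes on each side SDG724 had 4 of 80 (5%), close to the 5 of 80 of SDG712, SDG723 had 2, SDG701, SDG708 and SDG725 had 1 each, and SDG718 had 0. At 20 genes on each side, the median size of the genotype difference among their neighbours was between 0.132 and 0.221, compared with 0.349 around SDG712 and 0.284 around SDG711.

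Genes that work with or against these enzymes were read from fixed lists. Of the other methyltransferase genes 3 were tested and 0 were called in either comparison, among them SDG721 (961, 822, 842 and 910 in wild type SD, hd1-3 SD, wild type LD and hd1-3 LD), a further H3K4 enzyme, and SDG705 (845, 777, 958 and 977 in the same order). SDG714, an H3K9 enzyme in the same branch of the study's tree as SDG712, was not analysed here. Of the histone demethylase genes 4 were tested and 0 called. JMJ705, which removes H3K27 methylation, came nearest, with LD minus SD at 0.71 (limma, adjusted p = 0.0551) from signals of 310, 372, 596 and 523 in the same order. JMJ703, an H3K4 demethylase, differed by 0.32 between day lengths (adjusted p = 0.208) and JMJ706, an H3K9 demethylase, by 0.23 (adjusted p = 0.518). The PRC2 partners of SDG711 and SDG718 that were measured, FIE and MSI1, were bright and not called, with genotype differences of -0.07 and -0.13.

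Of 6 listed genes on which these enzymes act, 3 were measured and 2, Hd3a and Ehd3, were tested. Hd3a passed for genotype and for day length, where 2.07% and 13.6% of all tested probe sets did. Under SD it read 295 (wild type) and 1116 (hd1-3), and under LD 4.70 (wild type) and 700 (hd1-3). Hd3a was thus higher on both hd1-3 arrays, where SDG712 was low, and below 100 in wild type under LD, where SDG712 was highest, over 4 arrays only. Both genes differed by genotype, and Hd1, disrupted in hd1-3, is itself a known regulator of Hd3a. A link between SDG712 and Hd3a was not tested. With signals below 100 raised to 100, Hd3a was 3.78-fold higher in hd1-3 under SD and at least 7.0-fold higher under LD (limma, adjusted p = 0.0342 for genotype and 0.0411 for day length). Ehd3, a plant homeodomain gene that acts with SDG723, differed by 0.30 between genotypes (adjusted p = 0.552). Ehd1 was not analysed here.

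Several facts of the whole series stand beside these results. Every array was scaled to the same trimmed mean, 500, and between 24026 and 24717 probe sets reached 100. Hd1 read 142 and 60.5 under SD and 89.3 and 5.40 under LD in wild type and hd1-3, lower on both mutant arrays but at 100 on 1 array only (limma, -2.51, adjusted p = 0.429), which makes it a weak check of the labels. All 5 measured leaf markers were above 100 on every array, with a summed signal between 141600 and 152900, and of these PORA, an enzyme of chlorophyll synthesis, was called for day length (0.82 higher under LD, adjusted p = 0.00865). Of 6 measured inflorescence markers 5 were below 100 on every array, and their summed signal was 185 and 166 in wild type and 419 and 375 in hd1-3 under SD and LD, carried by MADS1 (71.7 and 21.9 in wild type, 296 and 237 in hd1-3). The ratio of 3′ to 5′ signal of GAPDH, a sign of RNA integrity, was 1.64 and 1.48 in wild type but 4.16 and 4.25 in hd1-3, and that of cyclophilin was 1.42 and 1.59 in wild type and 1.69 and 1.67 in hd1-3, while the ratios of actin and ubiquitin overlapped between genotypes. The GAPDH and cyclophilin ratios and MADS1 also separated the genotypes, being higher in hd1-3 where SDG712 was lower. Their part in the SDG712 difference was not tested.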

How the data were processed

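Leaf RNA of 4 samples was biotin-labelled and hybridised to the Affymetrix Rice Genome Array. The authors made the deposited values with the MAS 5.0 algorithm, so each is a linear signal intensity per probe set. Its version and scaling target, and any detection calls, were not given by the sources used here. After 187 probe sets for controls and reporters had been dropped, log2 of the intensity plus 1 was taken. Genes were named through the platform table and, for locus numbers, the supplementary annotation of the study. RefSeq (ASM3414082v1) gave gene names, chromosomes and gene order only.

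limma 3.58.1 (R 4.3.3; lmFit, eBayes with trend) fitted genotype and day length over all 4 arrays on the 28133 probe sets that reached 100 on any array, with Benjamini-Hochberg adjustment over all of them and a threshold of 0.05. The residual has 1 degree of freedom and the prior 8.29 on average, so p-values rest mostly on the variance shared by probe sets of like signal. There are no replicates, so the residual of a probe set is the change of its genotype difference between day lengths, which may be technical in part. Any real change of that kind counts as noise in the p-values and SEs. They do not measure a spread between replicate samples. MAS 5.0 values were not normalised further, and the number of arrays limits the precision. The spread by signal is a robust standard deviation of the difference between the genotype folds under SD and LD, divided by the square root of 2 to give the spread of a single fold (the plan had divided by 2, which gives that of their mean), so it includes real differences between day lengths. Data were also simulated with the mean signals of these arrays (28471 tested probe sets). The fit recovered 73% of genotype changes of 1 on the log2 scale and 90% of those of 2, with 34 false calls. For day length changes it recovered 72.7% and 89.1%, with 32 false calls. The simulated noise depended on signal alone, as the trend assumes, and no genotype change differed between day lengths. These figures therefore need not hold for the real data.

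Named genes were the 8 genes with every probe set and, of each list, the genes called or otherwise the brightest 2. JMJ705 and Ehd3 were named outside this rule, after their values had been seen. The list rules referred to RefSeq descriptions, which the tables used here lack, so the lists were built from synonyms, protein accessions and the supplementary annotation. Listed were other methyltransferases, demethylases, PRC2 partners, targets and markers of leaf, inflorescence, meristem and root. The members and lists were chosen with earlier results of these data known. The chromosome windows and their widths, the counts of genes that reached 100 in both genotypes, the medians by brightness, and LOC_Os02g40240, were chosen after the values had been seen. Alternatives covered the pseudocount (32), the scaling, the filter, the limma trend, the model terms and leaving out each array. Python 3.11.15 with pandas 2.3.3 did the rest.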

Additional observations from a re-analysis of the deposited data

How the results depend on the processing

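With 1 array in each group, the calls depended on how the variance was shared. For genotype, 583 probe sets were called in all, 327 at a filter of 500, 53 without the day length term, 0 with limma without its trend (2560 at an unadjusted p under 0.05), and 22 to 73 with 1 array left out (22 without hd1-3 SD, 29 without hd1-3 LD, 66 without wild type SD, 73 without wild type LD). Among the SDG genes the 1 call, SDG712, became 0 without the trend (adjusted p = 0.41), without the day length term (adjusted p = 0.173) and with each array left out (adjusted p = 0.0503 to 0.353), while its difference stayed between -4.90 and -3.19. Adjusted p-values of SDG712 over its 11 alternatives ran from 0.000124 to 0.41. For day length, 3831 were called, 1298 without the genotype term, 0 without the trend (5388 at an unadjusted p under 0.05) and 154 to 348 with 1 array left out (154 without wild type SD, 324 without wild type LD, 347 without hd1-3 LD, 348 without hd1-3 SD). No alternative called any SDG gene for day length, and for the brightest probe set of SDG723 the adjusted p-values ran from 0.0744 to 0.539. The day length difference of SDG712 turned positive, 0.83 without wild type SD and 1.88 without hd1-3 LD, where the genotypes are unbalanced between day lengths by construction. With 32 added in place of 1, 1 SDG probe set in place of 2 was above 2-fold for day length in wild type. With the brightest probe set of each gene alone, 1 in place of 3 was above 2-fold for genotype under LD, 0 in place of 2 for day length in wild type and 1 in place of 3 for day length in hd1-3, since the dim probe sets drop out. With 32 added the genotype difference of SDG712 was -2.63 under SD and -4.03 under LD. Of 203 comparisons of values called in neither setting, 18 changed sign. Leaving out an array required dropping the other term, since 3 arrays leave no residual degree of freedom with both. The cause of the other shifts was not tested. No paired analysis was possible because each group holds 1 array, and day length is already a term of the fit. Signals below 100 limit SDG712 in hd1-3, the second probe set of SDG723 under SD and 3 further probe sets of the 13 to bounds.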

Other observations

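The genes whose array-centred profile came nearest to that of SDG712, by Euclidean distance in log2 over the 4 arrays among 11875 genes, were LOC4350799 (0.322), LOC4340738 (0.504), LOC4341380 (0.514), LOC4345100 (0.546) and LOC9267767 (0.555). For these distances signals below 100 were raised to 100, and only genes whose brightest array reached 500 were compared. Differences below 100 therefore do not count in them. LOC4350799 lies on chromosome 11 and had signals of 780 and 75.2 under SD and of 794 and 117 under LD, in wild type and hd1-3 respectively. In hd1-3 under LD SDG712 read 25.8. LOC4340738 lies on chromosome 6, 7 tested genes from SDG711, with 558 and 52.4 under SD and 601 and 42.0 under LD.

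The locus LOC_Os02g40240, whose probe set has no gene in the platform table and which was picked after its values were seen, lies on chromosome 2 like SDG712. Its signal was 9925 and 84.5 under SD and 19069 and 126 under LD, in wild type and hd1-3, so that both wild type arrays were far above both hd1-3 arrays (limma, adjusted p = 9.35e-08). It was not counted among the neighbours of SDG712, since those were counted over genes of the platform table.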
